A study of Mus musculus with 24 samples.

Results

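The 10 genes described here, Fos, Fosb, Fosl2, Junb, Egr1, Egr2, Egr3, Arc, Npas4 and Nr4a1, are immediate early genes, and they were taken by symbol from a table of 32884 genes. Each symbol was found once. Tissue was spinal cord of mice with spared nerve injury (SNI), a model of neuropathic pain in which the common peroneal and tibial nerves were ligated and cut, on day 3, day 7 or day 14 after surgery. Sham mice had the sciatic nerve and its branches exposed only, and are labelled day 3, so later days are compared with an earlier sham. All mice had sevoflurane anaesthesia. The labels give no strain, genotype, sex or age. Each of the 4 groups had 3 input RNA libraries, 12 in all, and 3 libraries enriched for N6-methyladenosine (m6A) with an antibody, which makes 24 samples. The sources used here do not say that the 3 libraries of a group are 3 mice. A p-value therefore sets a difference between groups against the spread of these libraries, and that spread may be technical.

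Immediate early genes are transcribed within minutes of a synaptic, growth factor or stress signal, without new protein synthesis, through kinases that act on factors already in place, among them CREB and serum response factor. Their mRNAs are short-lived, and in dorsal horn neurons the Fos protein has long been used as a marker of recent noxious input. Fos, Fosb, Fosl2 and Junb encode parts of the dimeric transcription factor AP-1, Egr1, Egr2 and Egr3 encode zinc finger factors, Npas4 is a neuronal factor that responds to calcium entry, Nr4a1 is an orphan nuclear receptor, and Arc encodes a capsid-like protein that removes AMPA receptors from synapses.

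CREB binds the letters TGACG, the core of the cAMP response element (CRE), and the windows of 4 immediate early genes that hold that core are shown. Each is the 250 bases upstream of the RefSeq start on the strand of the gene (build GRCm38.p6), 5′ to 3′. Capitals mark TGACG or its reverse complement CGTCA.
Fos, chr12:85473640-85473889, plus strand: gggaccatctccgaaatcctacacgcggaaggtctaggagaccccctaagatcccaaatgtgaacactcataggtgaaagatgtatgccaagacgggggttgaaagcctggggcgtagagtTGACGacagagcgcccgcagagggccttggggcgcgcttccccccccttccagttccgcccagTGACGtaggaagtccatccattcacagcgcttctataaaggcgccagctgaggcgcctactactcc
Fosb, chr7:19310046-19310295, minus strand: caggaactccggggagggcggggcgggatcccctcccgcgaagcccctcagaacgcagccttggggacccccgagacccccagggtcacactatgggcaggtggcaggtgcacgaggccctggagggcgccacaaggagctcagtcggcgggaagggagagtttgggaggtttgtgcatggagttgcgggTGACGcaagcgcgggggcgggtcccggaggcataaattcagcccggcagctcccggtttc
Junb, chr8:84978749-84978998, minus strand: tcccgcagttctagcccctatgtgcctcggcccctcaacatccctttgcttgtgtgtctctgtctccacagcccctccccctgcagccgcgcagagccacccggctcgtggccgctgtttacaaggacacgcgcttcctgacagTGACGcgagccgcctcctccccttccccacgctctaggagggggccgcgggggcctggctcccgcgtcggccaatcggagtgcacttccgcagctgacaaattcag
Nr4a1, chr15:101266596-101266845, plus strand: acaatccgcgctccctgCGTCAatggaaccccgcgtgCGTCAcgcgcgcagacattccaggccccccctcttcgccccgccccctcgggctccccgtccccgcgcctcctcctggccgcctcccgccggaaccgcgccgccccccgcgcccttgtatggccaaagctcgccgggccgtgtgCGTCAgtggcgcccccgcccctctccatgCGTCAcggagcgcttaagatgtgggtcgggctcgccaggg
Counted from the start site, the core began at -129 and -66 in Fos, at -60 in Fosb and at -106 in Junb. In Nr4a1 it began at -233, -213, -69 and -40. The reference table held windows for 7 of the 10 genes, and 6 of them (Fos, Fosb, Junb, Egr2, Npas4 and Nr4a1) had the core on either strand in at least 1 window. Egr2 has 5 windows, of which 3 held it, so that 8 of the 11 windows of these genes did, against 17.8% of the 32851 windows in the table. Those 3 Egr2 windows overlap and hold the same 2 cores, so they are not separate counts. GCGGGGGCG, a site for EGR factors, was in Fosb, Fosl2 and Nr4a1, and in 2.57% of all windows. TATAAA was in Fos only among the 7 genes, and in 12.4% of all windows. The CArG box, bound by serum response factor, was in Egr2 only among the 7 genes, and in 1.47% of all windows. Arc, Egr1 and Egr3 had no window, and letters beyond 250 bases upstream were not searched, so sites there are not covered. No window of these genes held the full CRE TGACGTCA (1.55% of windows), the AP-1 site TGACTCA (4.46%) or AAAGGTCA, the site of Nr4a1 as a monomer (1.34%). Both strands were searched, and the full CRE contains the core, so these counts overlap. A match describes letters and not binding.

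Levels were given as FPKM, fragments per length of transcript scaled to all mapped fragments, so levels of different genes can be set side by side. FPKM summed to between 180340 and 201358 per library; read depth is unknown. A pair of libraries, day 7 library 3 and sham library 3, did not resemble the other 10. Across genes their log2 levels correlated with those 10 at 0.925 to 0.942 and with each other at 0.983, while the 10 correlated among themselves at 0.979 to 0.988. Among the other 10, libraries of 1 group were very alike. Over the 7044 genes at 2 to 10 FPKM, the spread of the ratio between a pair of libraries was 7.63 to 8.74% inside a group. It was 8.7 to 10.9% across groups, and 41.6 to 47.8% where 1 of the pair was a library that stood apart. Sham libraries 1 and 2 also differed from every injured library in Lars2, which was at 108 FPKM in both. It was at 11.9 to 18.7 FPKM in 8 injured libraries, and at 1.18 and 1.11 FPKM in day 7 library 3 and sham library 3. Every comparison below is therefore given with all 12 libraries and, beside it, without the 2 that stood apart.

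The labelled tissue had its markers: all 10 neuronal markers (among them Snap25, Slc17a6 and Gad1), all 6 markers of astrocytes, of oligodendrocytes, of microglia and of endothelium, and all 5 of motor neurons were at a mean of at least 0.5 FPKM. Of other sources, 5 of 5 blood markers, 5 of 6 for meninges and fibroblasts, 3 of 6 for skeletal muscle and 2 of 7 for dorsal root ganglion reached that level.

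Arc, Egr1 and Fos were expressed above the level of the median tested gene, 4.51 FPKM, and the other 7 immediate early genes below it. Arc had the highest mean over the 12 libraries, 8.58 ± 2.15 FPKM (SD), followed by Egr1 at 6.21 ± 1.09, Fos at 5.26 ± 0.856, Junb at 3.51 ± 0.699 and Nr4a1 at 2.53 ± 0.629 FPKM. Npas4 was at 1.24 ± 0.178, Fosl2 at 0.81 ± 0.111, Egr3 at 0.767 ± 0.194, Fosb at 0.267 ± 0.046 and Egr2 at 0.0489 ± 0.0445 FPKM. Over 12 libraries every neighbouring pair in this order overlapped, except Egr3 above Fosb and Fosb above Egr2. Over the 10 libraries without the 2 that stood apart, Arc (8.02 to 11.0 FPKM) lay wholly above Egr1 (6.07 to 7.45), Fos (4.9 to 6.49) above Junb (2.91 to 4.87), Nr4a1 (2.48 to 3.44) above Npas4 (1.02 to 1.5), and Npas4 above Fosl2 (0.693 to 0.992), while Egr1 and Fos, Junb and Nr4a1, and Fosl2 and Egr3 still overlapped.

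**Figure D1:**
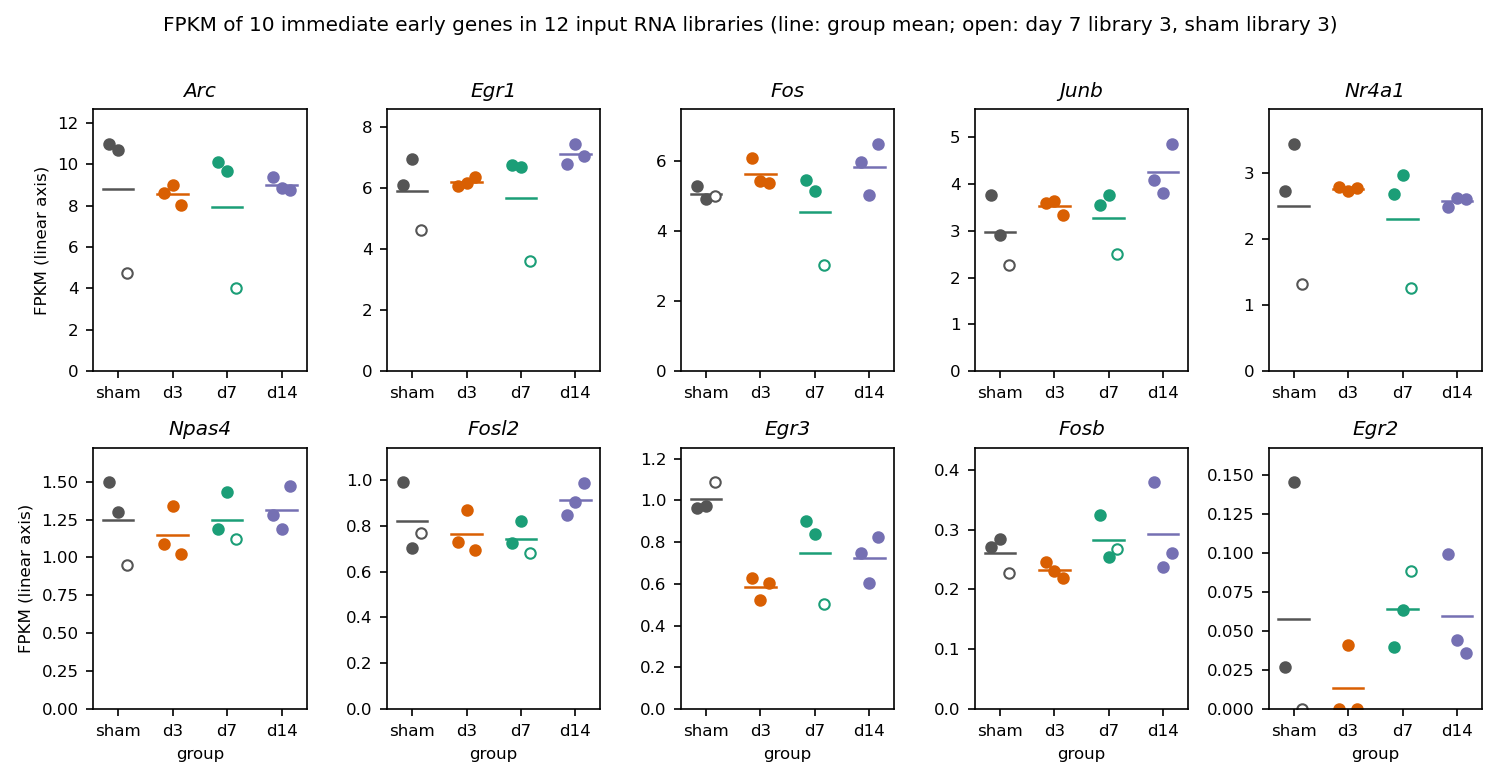
FPKM (linear axis from 0) of each immediate early gene in the 12 input libraries, by group; each point is 1 library, short lines are group means, and open points are day 7 library 3 and sham library 3. The 2 open points are the lowest of their groups for Arc (4.0 and 4.76 FPKM) and Nr4a1 (1.25 and 1.32 FPKM), and for Egr3 all 3 sham points lie above all 9 injured points.

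Fos, the prototype of the family (ENSMUSG00000021250, chr12:85473890-85477273, plus strand), was at 5.27, 4.9 and 4.98 FPKM in sham libraries 1 to 3 and at 6.09, 5.43 and 5.37 FPKM on day 3. On day 7 it was at 5.46, 5.13 and 3.02 FPKM and on day 14 at 5.96, 5.03 and 6.49 FPKM. The day 3 libraries lay above all sham libraries, by as little as 5.37 against 5.27 FPKM, while day 7 and day 14 overlapped sham. The log2 fold change (of FPKM + 0.5) against sham was 0.14 ± 0.18 (SE) on day 3, -0.18 ± 0.18 on day 7 and 0.18 ± 0.18 on day 14 in a limma fit over all genes (adjusted p = 0.72, 1 and 0.70). None of these differences passed the test. Without the 2 libraries that stood apart they were 0.13 ± 0.10, 0.05 ± 0.10 and 0.17 ± 0.10 (limma adjusted p = 0.46, 0.88 and 0.36).

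Junb, the AP-1 partner with weaker activation (ENSMUSG00000052837, chr8:84976910-84978718, minus strand), was at 3.77, 2.91 and 2.26 FPKM in sham, at 3.6, 3.63 and 3.34 FPKM on day 3 and at 3.55, 3.76 and 2.5 FPKM on day 7. On day 14 it was at 4.09, 3.8 and 4.87 FPKM, above all 3 sham libraries. The day 14 log2 fold change was 0.47 ± 0.17 and did not pass (limma, unadjusted p = 0.022, adjusted p = 0.70). Without the 2 libraries that stood apart it was 0.31 ± 0.11 (limma adjusted p = 0.17). Fosl2, which encodes Fra-2 (ENSMUSG00000029135, chr5:32135801-32157842, plus strand), was at 0.992, 0.704 and 0.767 FPKM in sham. The 9 injured libraries lay between 0.681 and 0.985 FPKM and overlapped sham. Its log2 fold changes lay between -0.08 and 0.10. Without the 2 libraries that stood apart they lay between -0.09 and 0.07.

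Fosb, whose short splice form is the stable ΔFosB of chronic stimulation (ENSMUSG00000003545, chr7:19302696-19310051, minus strand), was at 0.271, 0.284 and 0.227 FPKM in sham and between 0.219 and 0.38 FPKM in the 9 injured libraries. Its level per gene does not separate the splice forms. Egr2, known best from myelinating Schwann cells (ENSMUSG00000037868, chr10:67535475-67542188, plus strand), was listed at 0 in 3 of 12 libraries and reached 0.146 FPKM at most. Both genes fell below the filter of a mean of 0.5 FPKM and were not tested; the other 8 immediate early genes were.

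Egr1 (ENSMUSG00000038418), an activity marker that binds GC-rich sites, was at 6.1, 6.94 and 4.61 FPKM in sham, at 6.07, 6.15 and 6.34 FPKM on day 3, at 6.75, 6.67 and 3.6 FPKM on day 7 and at 6.79, 7.45 and 7.05 FPKM on day 14. All injured groups overlapped sham, and the largest log2 fold change was 0.27 ± 0.21 on day 14 (limma adjusted p = 0.70). Without the 2 libraries that stood apart, the day 14 value was 0.115 ± 0.056 (limma adjusted p = 0.31).

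Egr3, a related factor that acts downstream of neuronal activity (ENSMUSG00000033730, chr14:70077203-70082614, plus strand), was lower in every injured library than in every sham library. It was at 0.964, 0.973 and 1.09 FPKM in sham and at 0.629, 0.523 and 0.602 FPKM on day 3. On day 7 it was at 0.901, 0.84 and 0.504 FPKM and on day 14 at 0.749, 0.603 and 0.824 FPKM. Sham and injured values did not overlap on any day. Of the 15564 genes tested, 48 (0.308%) had all 9 injured libraries below all 3 sham libraries. Egr3 was the one among the 8 immediate early genes tested. Genes with all injured libraries above all sham libraries were not counted, so the share in either direction is not known. The log2 fold change was -0.48 ± 0.13 on day 3 (unadjusted p = 0.0052), -0.29 ± 0.13 on day 7 (unadjusted p = 0.058), -0.30 ± 0.13 on day 14 (unadjusted p = 0.048) and -0.36 ± 0.11 for the mean of the injured days (unadjusted p = 0.0088). After adjustment over all genes in limma none of them passed (adjusted p = 0.54, 1, 0.70 and 0.73). At this level the added 0.5 FPKM makes the fold change smaller: with 0.1 added, the day 3 difference was -0.70 (limma adjusted p = 0.56), and on values rescaled to TPM it was -0.75 (limma adjusted p = 0.49). Without day 7 library 3 and sham library 3 the day 3 difference was -0.44 ± 0.10 and passed (limma adjusted p = 0.039), while day 7 was -0.10 ± 0.11 (adjusted p = 0.77) and day 14 was -0.27 ± 0.10 (adjusted p = 0.19). In bulk tissue, fewer cells of a type and less RNA per cell cannot be told apart. For the 4209 genes at 0.5 to 2 FPKM, the range that holds Egr3, that spread was 20.4 to 22.5% inside a group.

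Arc (ENSMUSG00000022602, chr15:74669083-74672570, minus strand) was at 11.0, 10.7 and 4.76 FPKM in sham libraries 1 to 3. It was at 8.62, 9.01 and 8.02 FPKM on day 3, at 10.1, 9.67 and 4.0 FPKM on day 7 and at 9.39, 8.87 and 8.77 FPKM on day 14. The 2 lowest values were those of sham library 3 and day 7 library 3, and all injured groups lay within the sham range of 4.76 to 11.0 FPKM but for day 7 library 3. The other 8 injured libraries lay below sham libraries 1 and 2. With all 12 libraries the log2 fold change was 0.04 ± 0.35 on day 3, -0.16 ± 0.35 on day 7 and 0.11 ± 0.35 on day 14 (limma adjusted p = 0.96, 1 and 0.88). Without the 2 libraries that stood apart it was -0.33 ± 0.05 on day 3 (adjusted p = 0.0069), -0.13 ± 0.06 on day 7 (unadjusted p = 0.043, adjusted p = 0.36), -0.26 ± 0.05 on day 14 (adjusted p = 0.026) and -0.24 ± 0.04 for the mean of the injured days (adjusted p = 0.0197). Day 7 library 3 enters the day 3 and day 14 comparisons only through the estimate of the spread. The direction on those days thus depends on sham library 3.

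The Arc and Egr3 calls without the 2 libraries rest on 2 sham libraries that are near-identical to each other. If the near-identical libraries of a group are 1 sample, these fits have no residual degrees of freedom and no test. Averaging them into 6 samples, with the 2 that stood apart kept, left 0 of 8 immediate early genes called, and 0 of 15564 genes in any of the 7 contrasts. In that fit the smallest unadjusted p of any of the 8 in any contrast was 0.14 (Egr3, mean of the injured days). Egr3 was at a log2 of -0.50 on day 3 (unadjusted p = 0.18) and Arc at 0.23 (unadjusted p = 0.76).

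Npas4, which recruits inhibitory synapses onto active neurons (ENSMUSG00000045903, chr19:4984355-4990316, minus strand), was at 1.5, 1.3 and 0.948 FPKM in sham, and the injured libraries ranged from 1.02 to 1.47 FPKM, within the sham range. Its log2 fold changes were -0.08 ± 0.14, 0.01 ± 0.14 and 0.06 ± 0.14 on day 3, day 7 and day 14. Without the 2 libraries that stood apart they were -0.21 ± 0.11, -0.07 ± 0.12 and -0.07 ± 0.11, and none passed the threshold in either fit. Nr4a1, known also as Nur77 (ENSMUSG00000023034, chr15:101254269-101274795, plus strand), was at 2.72, 3.44 and 1.32 FPKM in sham, at 2.78, 2.72 and 2.77 FPKM on day 3, at 2.68, 2.96 and 1.25 FPKM on day 7 and at 2.48, 2.61 and 2.6 FPKM on day 14. Its low values were again those of sham library 3 and day 7 library 3. The log2 fold changes of Nr4a1 with 12 libraries were 0.19 ± 0.29, -0.09 ± 0.29 and 0.10 ± 0.29 on the 3 days. Those without the 2 libraries were -0.13 ± 0.08, -0.10 ± 0.09 and -0.22 ± 0.08, none past the threshold in limma (adjusted p = 0.41, 0.70 and 0.19 for the latter).

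**Figure D2:**
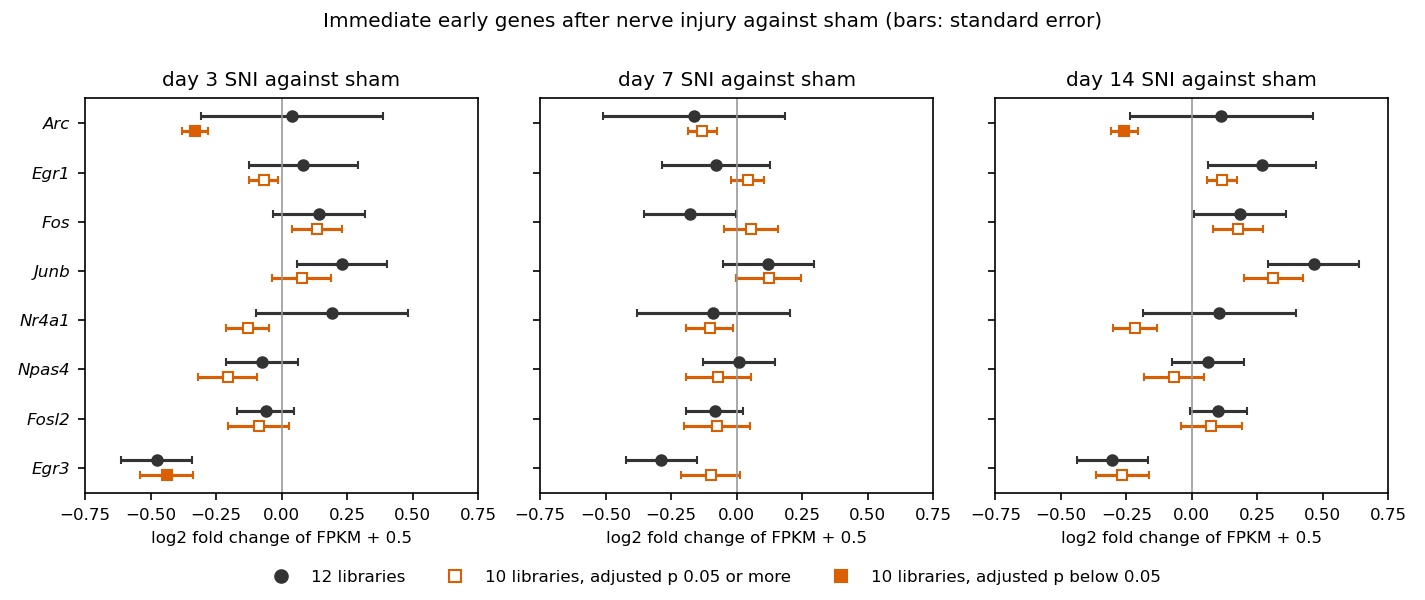
Log2 fold change of FPKM + 0.5 against sham (x axis) for the 8 immediate early genes tested, on day 3, day 7 and day 14; bars are standard errors, circles are all 12 libraries and squares the 10 without day 7 library 3 and sham library 3, a square being filled where the limma adjusted p was below 0.05. Arc moves from 0.04 to -0.33 on day 3 and from 0.11 to -0.26 on day 14, and Egr3 stays below 0 in every panel.

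Of the 8 tested, no immediate early gene passed an adjusted p of 0.05 with 12 libraries in any contrast. Against sham this was 0 of 8 on day 3 (0.0578% of all 15564 genes passed, 9 genes), 0 of 8 on day 7 (0.103% of all genes), 0 of 8 on day 14 (0.0514%) and 0 of 8 for the mean of the injured days (0.129%). With the replicate number as a block, day 7 against sham also gave 0 of 8, and 9 genes of all in place of 16. At an unadjusted p below 0.05 there was 1 of 8 on day 3 (6.24% of all genes), 0 of 8 on day 7 (2.53%), 2 of 8 on day 14 (4.92%) and 1 of 8 for the mean (4.84%), all Egr3 but for Junb on day 14. Without the 2 libraries, 2 of 8 passed the adjusted threshold on day 3 (7.07% of all genes), 0 of 8 on day 7 (1.11%), 1 of 8 on day 14 (4.71%) and 1 of 8 for the mean (4.41%). On day 7 Arc was at an unadjusted p below 0.05, 1 of 8 against 12.9% of all genes. Libraries of an injured day and of sham did not overlap for 2 of 8 on day 3 (Fos higher and Egr3 lower; 20.9% of all genes), for 1 of 8 on day 7 (4.43%) and for 2 of 8 on day 14 (Junb higher and Egr3 lower; 18.3%). The median log2 fold change of the 8 was 0.06, -0.09 and 0.11 on the 3 days, against 0.03, 0.01 and 0.03 over all genes tested. The 3 contrasts share the sham libraries.

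Between injured days 0 of 8 passed with 12 libraries. No sham mean enters these differences, but the sham libraries share in the estimate of the spread: without sham library 3, calls over all genes went from 2 to 8 for day 7 against day 3, from 5 to 15 for day 14 against day 7 and from 2 to 4 for day 14 against day 3. The share of all genes that passed was 0.0129% for day 7 against day 3, 0.0321% for day 14 against day 7 and 0.0129% for day 14 against day 3, and at an unadjusted p below 0.05, which none of the 8 reached, it was 4.05, 4.46 and 1.75%. Without the 2 libraries 0 of 8 passed as well (2.04, 2.69 and 1.99% of all genes). At an unadjusted p below 0.05 there were then Egr3 (0.34 ± 0.10) and Arc (0.20 ± 0.05) higher on day 7 than on day 3, 2 of 8 against 15.2% of all genes. Arc was lower on day 14 than on day 7 (-0.13 ± 0.05), 1 of 8 against 16.3%. Junb (0.23 ± 0.10) and Egr1 (0.18 ± 0.05) were higher on day 14 than on day 3, 2 of 8 against 15.3%.

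Markers of cell types also differed between these libraries, and their part in the values of Arc and Egr3 was not tested. Without the 2 libraries that stood apart, the summed FPKM of the neuronal markers was 1640 in both sham libraries and 1600 to 1630 in the 8 injured ones. In the fit without those 2 libraries, 7.07, 1.11 and 4.71% of all genes passed on day 3, day 7 and day 14. Of 10 neuronal markers, Snap25 and Tubb3 passed as higher and Nefl as lower on day 3 and on day 14. Of 5 motor neuron markers, Chat and Slc5a7 passed as lower on those days. On day 7 Tubb3 and the motor neuron marker Prph passed as higher, and Nefl and Slc5a7 as lower. Of 6 astrocyte markers, Gfap passed as higher and Aqp4 as lower on day 3. Gfap passed as higher on day 7, and Aqp4, Gfap and Gja1 as lower on day 14. Blood markers summed to 189 to 202 FPKM in sham and 355 to 693 FPKM in the injured libraries. Of 5 blood markers, 4 passed as higher on day 3 and all 5 on day 7 and on day 14. Microglial markers summed to 64.1 to 66.4 in sham and 76.2 to 88.0 FPKM in injured libraries. Of 6, 4 passed as higher on day 3 and on day 7 and 3 on day 14. Endothelial markers summed to 64.0 to 64.5 in sham and 52.9 to 55.6 FPKM in injured libraries. Of 6, 3 passed as lower on day 3 and on day 14 and 1 on day 7. Oligodendrocyte markers summed to 4500 to 4510 in sham and 3720 to 4730 FPKM in injured libraries, with all 6 lower on day 3 and on day 14 and 3 of 6 higher on day 7. With 12 libraries, Tmem119 of microglia rose and Slc5a7 of motor neurons fell on day 3, and all 5 blood markers rose on day 7. No other marker of these lists passed on day 3, day 7 or day 14.

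The 2 libraries that stood apart were below the lower quartile of all tested genes for 6 of 8 immediate early genes (day 7 library 3) and for 4 of 8 (sham library 3). Against the other 2 libraries of its group, day 7 library 3 differed by a log2 of -1.21 for Arc, -0.92 for Nr4a1, -0.82 for Egr1, -0.72 for Fos, -0.47 for Junb, -0.45 for Egr3, -0.16 for Npas4 and -0.11 for Fosl2. Sham library 3 differed from its mates by -1.11 for Arc, -0.97 for Nr4a1, -0.46 for Junb, -0.46 for Egr1 and -0.39 for Npas4, and by -0.08 for Fosl2, -0.02 for Fos and 0.11 for Egr3. The quartiles over all tested genes were -0.40 and 0.33 for day 7 library 3 and -0.44 and 0.34 for sham library 3. Both libraries also had lower sums of neuronal markers, 1100 and 1190 FPKM against 1600 to 1640 in the other 10, and of motor neuron markers, 38.2 and 43.0 against 61.9 to 72.3 FPKM; the part of this in the low values was not tested. Set directly against each other, the 2 libraries differed by -0.64 for Fos and -0.66 for Egr3 (day 7 minus sham), by -0.32 for Egr1, -0.22 for Arc, -0.10 for Fosl2 and -0.06 for Nr4a1, and by 0.12 for Junb and 0.17 for Npas4. The quartiles of this difference over all tested genes were -0.11 and 0.15.

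**Figure D3:**
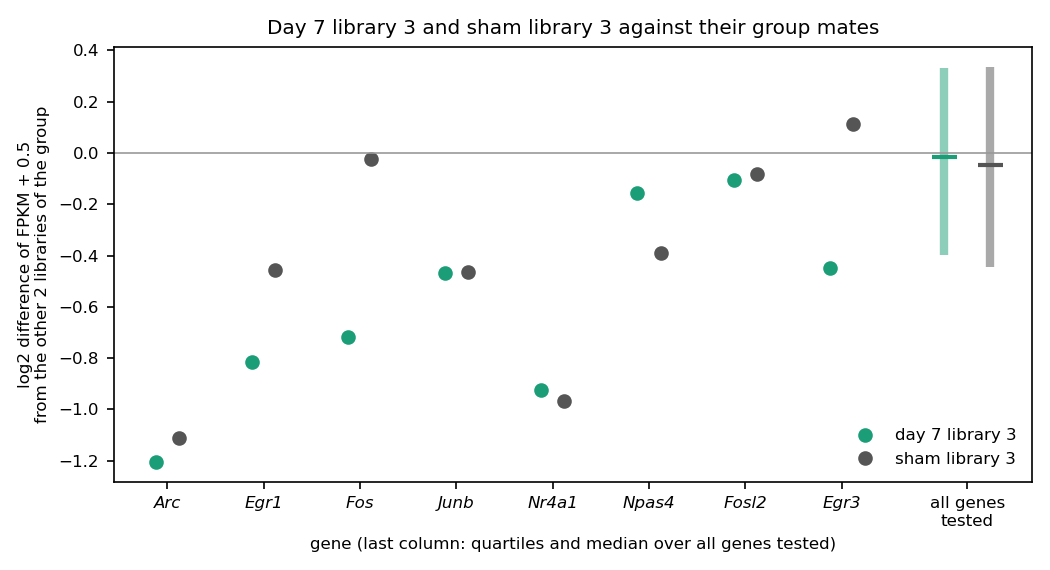
Log2 difference of FPKM + 0.5 (y axis) of day 7 library 3 and of sham library 3 from the mean of the other 2 libraries of their group, for the 8 immediate early genes tested; the last column gives the median and quartiles over all genes tested. Arc and Nr4a1 are lowest in both libraries, and Fos and Egr3 are low in day 7 library 3 only.

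Across the 10 other libraries the immediate early genes did not vary as 1 block. Pearson r of log2 levels was 0.82 for Arc and Egr3, 0.75 for Junb and Fosl2, 0.74 for Npas4 and Fosl2 and 0.72 for Fos and Junb, but 0.02 for Arc and Egr1, -0.44 for Arc and Fos and -0.74 for Junb and Nr4a1. These libraries include near-identical ones, so the values describe them and carry no test. With the 2 libraries that stood apart included, Arc gave 0.90 with Egr1 and 0.95 with Nr4a1, values that rest on those 2. Genes at a mean of at least 1 FPKM were ranked by r, leaving out those with Gm, Rik or numeric-only symbols. Among them, the 5 most like Arc over the 10 libraries were Abcc5, Mest, Ddit4l, Pcyox1l and Ltbp4, with r of 0.945 to 0.967. Those most like Egr1 were Crtc1, Selenom, Rps24-ps3, Sphk2 and Ahnak2 (0.922 to 0.972), and those most like Fos were Pfdn6, Rps6ka2, Zfyve27, Eif1ax and Morf4l1-ps1 (0.886 to 0.925). Rps24-ps3 and Morf4l1-ps1 are pseudogenes that can share reads with their parent genes, so their levels are uncertain. With the 2 libraries included, r turned to -0.48 for Abcc5 with Arc, -0.47 for Rps24-ps3 with Egr1, and -0.60 for Eif1ax and -0.34 for Morf4l1-ps1 with Fos. Over all 12 libraries the 5 were Pex5, Plxnb1, Mast3, Myrf and Eng for Arc, Selenom, Magee1, Sncb, Ahdc1 and Wbp2 for Egr1, and Arhgap36, Ldb1, D17H6S53E, Ankrd54 and Marchf2 for Fos. Selenom, for Egr1, was the gene on both lists; its r was 0.942 and 0.992.

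Of the 9 tested genes of the AP-1 family outside the 10, 1 passed with 12 libraries, Atf3, on all 3 days. Atf3, a stress factor induced by axon damage, had a mean of 0.422 FPKM in sham and 6.27, 8.75 and 5.83 FPKM on day 3, day 7 and day 14, with log2 fold changes of 2.89 ± 0.13, 3.33 ± 0.13 and 2.79 ± 0.13 (limma adjusted p = 1.03e-05, 2.49e-06 and 1.47e-05). Jun, the AP-1 partner that is phosphorylated by JNK, differed by 0.35 ± 0.10 on day 7 (limma adjusted p = 0.89), and by 0.32 ± 0.03 without the 2 libraries, where it passed (adjusted p = 0.0017). Jund was the other AP-1 gene to pass without them, at -0.10 ± 0.03 on day 3 and 0.18 ± 0.03 on day 7 (adjusted p = 0.048 and 0.023). In that fit 7.07% of all genes passed on day 3 and 1.11% on day 7. The median log2 fold change of the 9 was -0.02, 0.00 and 0.03 on the 3 days.

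Of 39 tested other primary response genes, 14 activity-regulated synaptic and secreted genes, 34 upstream kinases and transcription factors, 6 co-repressors and negative regulators of EGR factors and 15 factors of AU-rich mRNA decay, 0 passed with 12 libraries on any day. At an unadjusted p below 0.05 these lists had 3, 3, 1, 0 and 2 genes on day 3, 0, 1, 0, 0 and 0 on day 7, and 3, 3, 1, 0 and 0 on day 14, where 6.24, 2.53 and 4.92% of all genes reached it on the 3 days. The smallest p for the mean of the injured days belonged to Sgk1, a glucocorticoid-induced kinase (0.75 ± 0.19, limma adjusted p = 0.43), and Per1, a clock gene (0.38 ± 0.18, adjusted p = 0.80); to Gadd45a, a DNA damage response gene (0.37 ± 0.08, adjusted p = 0.20), and Penk, the precursor of enkephalins (0.13 ± 0.04, adjusted p = 0.77); to the CREB kinase genes Rps6ka1 (0.18 ± 0.09) and Rps6ka4 (0.25 ± 0.17); to Fhl2 (0.27 ± 0.22) and Nab1 (-0.12 ± 0.15); and to Parn, a deadenylase (0.16 ± 0.06), and Zfp36, which encodes tristetraprolin (0.16 ± 0.08). Without the 2 libraries, Sgk1 passed on all 3 days (1.29 ± 0.03, 0.40 ± 0.04 and 0.95 ± 0.03; limma adjusted p = 1.87e-07, 0.0016 and 1.83e-06). Per1, Plk2 and Penk passed as higher on day 3 and day 14, Gadd45a, Cnot7 and Hnrnpd on day 3 and Syt4 on day 14. Nefm passed as lower on all 3 days, Vgf on day 3 and day 14, and Plk3, Srf and Elavl3 on day 3. In the order above, the lists had 3, 2, 0, 0 and 2 genes higher and 2, 2, 1, 0 and 1 lower on day 3. Srf counts there both as a primary response gene and as an upstream factor. On day 14 they had 3, 2, 0, 0 and 0 higher and 0, 2, 0, 0 and 0 lower. Of all genes, 7.07, 1.11 and 4.71% passed on day 3, day 7 and day 14 in that fit. These calls rest on the same 2 sham libraries as those of Arc and Egr3.

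Peaks of m6A, stretches of RNA enriched by the antibody over input, were deposited as 1 list per group, with no value per library, so no spread between libraries can be given for them. Fold enrichment and p are those of the authors' lists. m6A is the most common internal mark of mRNA, lies mostly near stop codons and in 3′ UTRs, and is known to shorten the life of many marked mRNAs. All 10 immediate early genes had a peak in all 4 lists, and 9 of them did at a fold of at least 2 with p of at most 1e-05, which no Egr2 peak reached. The share of all genes at that stricter threshold was not counted, and the shares that follow are for any peak. Among all 15564 genes with a mean of at least 0.5 FPKM, 70.0% had a peak in every list, and the 8 genes of this level were all among them; of the 17320 genes above 0 and below 0.5 FPKM it was 16.7%, and Fosb and Egr2 were among those. The share with a peak thus differs with the level of a gene.

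The 10 genes held 29 peaks in the sham list, 28 on day 3, 23 on day 7 and 25 on day 14, of 32669, 40195, 34136 and 38655 peaks. Merging peaks that share an exonic base gave 24 sites, 14 of them in all 4 lists, 4 in 3 lists, 1 in 2 and 5 in 1. Sites were merged for these 10 genes only, so the share over all genes is not known. Of the 105 peaks, 65 were annotated to a 3′ UTR by the authors, 21 to a 5′ UTR and 19 to another exon; a peak has 1 annotation, so a wide one can cover coding sequence as well. The share in 3′ UTRs was 62.1% in sham, 60.7% on day 3, 60.9% on day 7 and 64.0% on day 14, against 48.4, 50.7, 49.3 and 51.5% over all peaks. Median fold enrichment was 4.97, 4.68, 5.64 and 5.71 in the 4 lists, against 6.03, 4.54, 5.37 and 4.52 over all peaks.

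Each of the 10 genes had at least 1 site that was in every list, and the main site is described here for all but Egr3. For Arc it was at chr15:74670862-74672210 (build not given in the sources used here) with fold enrichments of 5.59 in sham, 6.8 on day 3, 6.79 on day 7 and 7.2 on day 14. For Egr1 they were 7.58, 7.15, 8.59 and 6.74, and for Fos, at chr12:85475638-85476559, 4.8, 4.15, 4.27 and 4.1. For Junb, with 2 peaks in this site in sham and on day 7 and 1 on the other days, the highest was 15.4, 8.43, 11.7 and 7.96, and for Nr4a1, at chr15:101273837-101274795, 6.48, 4.67, 4.78 and 4.33. Fosl2 had 13.2, 13.2, 9.26 and 12.7 in its 3′ UTR, and Fosb 30.6, 16.4, 31.0 and 22.0 at chr7:19304428-19305175. The authors' annotation ties the 3′ peaks of Fosb to Gm26802 and 2 peaks of Junb to AC163703, so these may hold RNA of an overlapping gene. The values of Fosb and Egr2 (15.7, 9.38, 12.2 and 10.5) rest on the lowest input levels of the family, 0.267 and 0.0489 FPKM. Npas4 had 5.07, 12.9, 14.6 and 11.2 over its 3′ end, where the sham list breaks the region into 5 peaks and the day 3 list gives 1.

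Some sites were in some lists only. A second Arc site near the 3′ end of the gene, chr15:74669113-74669353, was in the 3 injured lists with fold enrichments of 3.89, 2.05 and 2.51 on day 3, day 7 and day 14, and not in the sham list. A site in the middle of Egr3, chr14:70079890-70080309, was at 6.38 in sham, 2.74 on day 3 and 3.81 on day 14 and not in the day 7 list. The distal site of Egr3, chr14:70081660-70081899, was at 3.48, 25.8, 5.64 and 8.13 in the 4 lists; its base-10 log p was -4.1 in sham, -6.39 on day 3, -6.27 on day 7 and -6.39 on day 14. A second day 3 peak at this site had a fold of 14.1. Egr3 had 25 peaks in all, most of which overlap another peak of the same list, and they were counted as 4 sites. Of the 5 sites in 1 list, 4 were on day 3 (1 each in Fosb, Junb, Egr1 and Egr3) and 1 on day 14 (Nr4a1). Of these, the Junb peak alone reached a p of 1e-05 or less. The day 3 list is the longest, and it held 22 of the 24 sites, against 18 in sham, 16 on day 7 and 19 on day 14. Of all peaks of the day 3, day 7 and day 14 lists, 63.6, 73.9 and 65.4% overlapped a sham peak by at least 1 base. Peaks without a sham partner were thus common over all genes. Absence from a list is not absence of the mark.

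**Figure D4:**
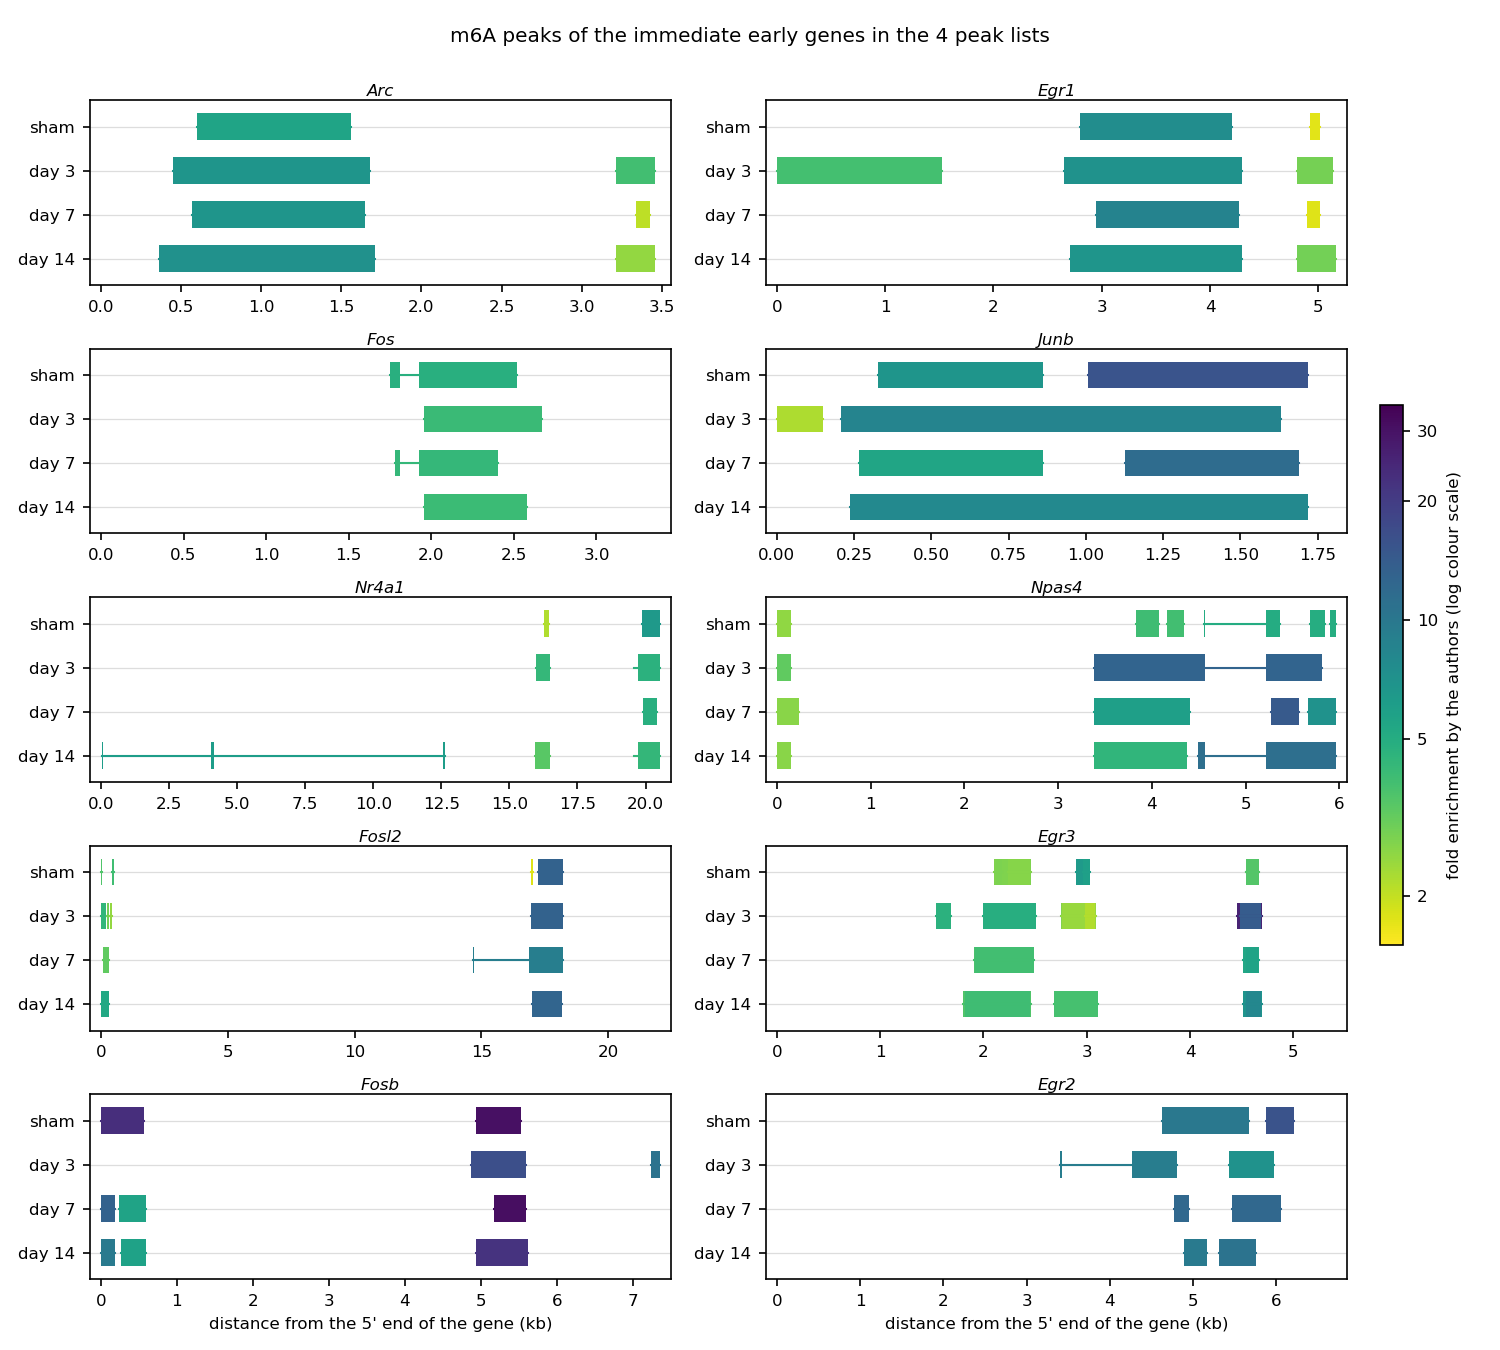
Peaks of m6A in each immediate early gene, by distance in kb from the 5′ end of the gene (x axis), in the sham, day 3, day 7 and day 14 lists (rows); boxes are exonic blocks, thin lines join blocks over introns, and colour gives fold enrichment on a log scale. The main peaks of Arc, Egr1 and Fos recur in all 4 lists, and the box at the far end of Arc is in the 3 injured lists.

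Boundaries of the peaks moved between lists. With a reciprocal overlap of at least 50% on the same strand, 10 of the 29 sham peaks were shared with the day 3 list (47.8% of all sham peaks were), 14 with day 7 (52.2%) and 12 with day 14 (48.6%). In the other direction 11 of 28 day 3 peaks were shared with sham (38.8% of all), 15 of 23 day 7 peaks (50.0%) and 13 of 25 day 14 peaks (41.1%). Peaks of genes in the FPKM table, 99.0 to 99.1% of each list, entered these shares. With an overlap of 1 base 27, 24 and 27 of the 29 sham peaks had a partner on day 3, day 7 and day 14, against 86.4, 81.1 and 85.8% of all sham peaks. Most sham peaks that were not shared at 50% thus had a partner of another width.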

How the data were processed

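Input RNA was measured in 12 libraries and m6A in 12 enriched libraries of the same 4 groups. Per the labels' protocols, poly(A) RNA was purified in 2 rounds, fragmented, enriched with an m6A antibody and made into stranded paired-end libraries. The submitters' processing notes name HISAT2, StringTie, ChIPseeker and edgeR, with no version or role. Gene levels are FPKM as the authors deposited them. Per the file headers, peak lists give fold enrichment as a ratio and a base-10 log p, a score here. Neither peak caller nor build is named there, and whether peaks were called on pooled libraries is not given in the sources used here. Depth is unknown, and low FPKM values showed no whole-read steps.

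Groups follow the sample labels. The 15564 genes whose FPKM averaged 0.5 or more over 12 libraries entered 1 limma-trend model (limma 3.58.1, R 4.3.3) of log2(FPKM + 0.5), with a mean for each of the 4 groups. The 7 contrasts were adjusted by Benjamini-Hochberg over all genes tested, with a threshold of 0.05. The fit was tested on simulated data, drawn as independent libraries with the spread of the day 3 libraries. Those data held no library that stood apart, so they do not cover that feature of the real libraries. The added 0.5 makes the fold changes of low genes smaller than they are. Peak overlap used bedtools 2.31.1, and peak starts, counted from 0 in the deposited lists, were raised by 1. Promoter windows are from RefSeq, GRCm38.p6. The spread of a ratio of 2 libraries is the scaled median absolute deviation of its natural log, in percent.

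The immediate early genes, the other gene lists and the exclusion of day 7 library 3 and sham library 3 were chosen with earlier results of these data known. All 10 genes are named; of other lists, genes that passed, or else the 2 with the smallest p for the mean of the injured days, and for likeness the 5 genes of highest Pearson r. Alternatives were other pseudocounts, filters, scalings, a replicate block, robust and 2-group fits, leaving out each library or the 2 together, and other peak thresholds and overlaps. Same-numbered libraries of day 7 and sham deviated together from their group means (r = 0.459, 0.534 and 0.793), which makes the numbers pairs for these 2 groups by the rule used, r over 0.1 in every pair. Library 3 of both groups stands apart, and the 3 deviations of a group sum to 0, so the 3 values are not independent. The other pairs of groups gave -0.105 to 0.212, with at least 1 value under 0.1 each, and the labels name no pairing. Averaging into 6 samples was chosen after seeing the data.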

Additional observations from a re-analysis of the deposited data

How the results depend on the processing

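Of 174 counts of immediate early genes called, over 25 alternative settings of the fit and 7 contrasts, 171 were 0, as with 12 libraries. These included all 84 that leave out 1 library (lowest 0, highest 0) and 83 others. The 3 exceptions left out day 7 library 3 and sham library 3: members called were 2 on day 3 (Arc and Egr3), 1 on day 14 and 1 for the mean of the injured days (Arc). Arc reversed there, to -0.33 on day 3 and -0.26 on day 14. Removing either library alone left 0 called. Of 1357 fold changes of single genes under an alternative, 74 others changed sign with neither value past the threshold, the largest from a log2 of 0.28 in size. Egr3 was negative against sham in every setting, between -0.75 and -0.34 on day 3 over 25 settings. Over all genes, calls on day 3, day 7 and day 14 went from 9, 16 and 8 to 1101, 173 and 733 without the 2 libraries, to 40, 13 and 13 without day 7 library 3 alone, to 27, 26 and 21 without sham library 3 alone, to 2, 1 and 5 in fits of 2 groups and to 0 with near-identical libraries averaged. A replicate block gave 0 of 8 called in each contrast (Egr3 on day 3, limma adjusted p = 0.52); over all genes it called 5, 9 and 8 on day 3, day 7 and day 14. It changed no call of an immediate early gene. For the peaks of the members, a stricter list (fold of at least 2, p of at most 1e-05) kept 19 of 29 in sham, 16 of 28 on day 3, 16 of 23 on day 7 and 16 of 25 on day 14, against 66.8, 55.0, 61.4 and 56.8% of all peaks, and left Egr2 with none. With 1 base of overlap, 27, 24 and 27 of 29 sham peaks were shared with day 3, day 7 and day 14. Of all sham peaks it was 86.4, 81.1 and 85.8%. In the other direction it was 22 of 28 on day 3, 21 of 23 on day 7 and 23 of 25 on day 14. Of all peaks of those lists it was 63.6, 73.9 and 65.4%. With a reciprocal overlap of 80% the shared peaks of these genes were 4, 7 and 4 in both directions. Of all sham peaks it was 26.2, 31.5 and 26.7%, and of all day 3, day 7 and day 14 peaks 21.3, 30.1 and 22.6%. Depth is unknown, so no limit from counting can be given for Egr2 or Fosb.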
